A study of Mus musculus with 6 samples.

Results

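Lipofibroblasts and alveolar fibroblasts are the interstitial fibroblasts of the lung's gas exchange region, and 10 genes that mark them or carry out their lipid handling were described here in fetal mouse lungs with and without a mesenchymal Cre. The genes were Pparg, Lpl, Cd36, Fabp4, Plin2, Inmt, Slc7a10, Limch1, Npnt and Gpc3. They were found by their symbols in the array's platform annotation, which gave 23 probe sets of 45037 on the array, and 10 genes of 18193 with a probe set. An Affymetrix probe set is a group of short probes against 1 transcript region. Of the 23 probe sets, 20 passed the filter on dim signals, at least 1 for each gene, and 3 did not.

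Whole lungs were taken at E18.5, shortly before birth, with 1 array for each animal. The control group (genotype Nfibf/f, 3 lungs) had Nfib alleles flanked by loxP sites and no Cre; Nfib encodes nuclear factor I B, a transcription factor. The other group (genotype Nfibf/f, Dermo1-Cre, 3 lungs) had the same alleles and Dermo1-Cre, a Cre recombinase driven by the locus of the mesenchymal gene Dermo1 (now Twist2), which is active in mesenchyme beyond the lung. The comparison addresses what mesenchymal Nfib does during lung maturation. No group had Dermo1-Cre without floxed Nfib alleles, so an effect of Nfib deletion and one of the Cre itself cannot be told apart. Labels call the lungs biological replicates and give no fetal sex or litter.

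Lipofibroblasts take up fatty acids from circulating lipoproteins, hold them in lipid droplets and pass lipid to alveolar type II cells, which make surfactant. Lipoprotein lipase releases the fatty acids, Cd36 carries them into the cell, Fabp4 binds them inside it and Plin2 coats the droplets. Pparg encodes PPAR gamma, a nuclear receptor that drives this programme together with a retinoid X receptor. The wider alveolar fibroblast class is known by genes such as Inmt, Slc7a10, Limch1, Npnt and Gpc3. Several of these genes are also used by other lung cells, among them capillary endothelium and macrophages for Cd36 and Fabp4. Arrays of whole lung do not show which cells the signal of any member came from, Npnt and Limch1 included.

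Values are log2 signals, so a difference of 1 is a 2-fold difference, and each difference is the Cre-labelled mean minus the control-labelled mean, given with its standard error (SE) from a limma fit over 27022 probe sets. A probe set passed at a Benjamini-Hochberg adjusted p under 0.05, two-sided. All arrays had nearly the same trimmed mean signal (150.04 to 150.05). Nfib itself was not lower in the Cre-labelled lungs: its brightest probe set read 10.24, 10.32 and 10.17 on the control-labelled arrays and 11.24, 11.16 and 11.49 on the Cre-labelled arrays. Of its 6 tested probe sets 5 passed as higher, and the sources used here do not say whether they lie in the part of Nfib that Cre removes. They therefore do not check the genotypes, and each direction below rests on the labels. Epithelial and mesenchymal marker lists were measured in every lung, all 6 and all 11 of their genes above the filter level.

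Most member genes were lower in the Cre-labelled lungs. Represented by its brightest probe set, each of 6 genes fell (Pparg, Cd36, Inmt, Slc7a10, Limch1 and Npnt), none rose, and Lpl, Fabp4, Plin2 and Gpc3 did not pass. Inmt was tested only because of its control-labelled signal, since its Cre-labelled mean of 3.60 lay below the filter level of 4.003 (log2). With a filter at the 60th percentile Pparg and Inmt were not tested and the other 4 passed. In the fits without 1 array 1 to 3 of the 10 member genes passed, whichever array was left out. These counts include Lpl without control-labelled replicate 3 and Fabp4 without Cre-labelled replicate 3. Of the 6 genes that fell, only Cd36 passed in all 6 of these fits. Over all 12826 genes tested the share that passed was 4.96%, with 3.04% as lower and 1.92% as higher. A lower mean was found for 9 of the 10 genes and for 51.5% of all genes. The median log2 difference was -0.82 over the 10 genes and -0.01 over all genes. By probe set, 9 of 20 passed, all as lower, against 3.56% of all probe sets that passed, 2.16% as lower and 1.41% as higher. For 7 of the 10 genes all Cre-labelled lungs lay below all control-labelled lungs, which held for 16.5% of all genes. The genes were picked with earlier results of these arrays known, so these counts describe them and are no independent evidence. Median log2 differences of marker lists were -0.82 for alveolar type I, -0.66 for alveolar type II, -0.01 for mesenchyme and 0.21 for smooth muscle. In RNA of a whole lung, fewer fibroblasts and less RNA in each fibroblast cannot be told apart. Nor can a change in other cells that use the same genes.

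**Figure D1:**
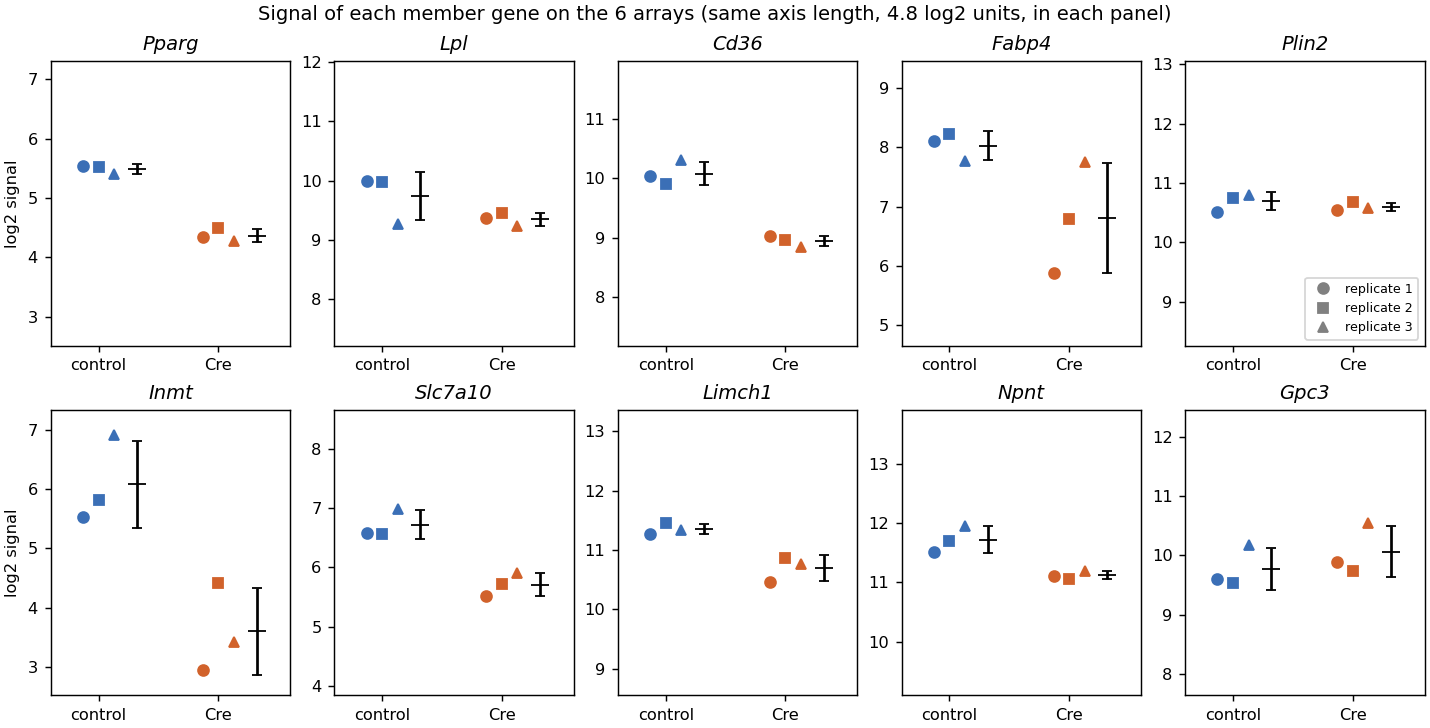
Log2 signal of the brightest probe set of each of the 10 genes on the 6 arrays, control-labelled in blue and Cre-labelled in orange, with replicate numbers as symbols and mean ± SD (n = 3) as black bars. The groups are apart for 7 genes, by 1.12 log2 units for Inmt and by 0.02 for Fabp4, and overlap for Lpl, Plin2 and Gpc3.

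Pparg, the regulator of the lipid programme, fell. Its probe set read 5.54, 5.52 and 5.40 in the control-labelled lungs and 4.34, 4.49 and 4.28 in the Cre-labelled lungs. Every Cre-labelled value lay at least 0.91 below the lowest control-labelled value, and the spread within each group was small (SD 0.08 and 0.11, n = 3 each). The difference was -1.12 ± 0.21 SE, or 2.17-fold lower (limma adjusted p = 0.025). Both group means, 5.49 and 4.37, stood only a little above the filter level of 4.003, so the fold depends on how dim signal is treated: with 64 added to the linear signal the difference was -0.36 (adjusted p = 0.019). The call was lost in each of the 6 fits without 1 array (adjusted p 0.054 to 0.083), while the difference stayed between -1.18 and -1.08.

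The promoter windows of Pparg, Cd36, Inmt and Slc7a10 are shown because these genes had the largest falls among the members that passed without an offset; with 64 added to the linear signal Pparg and Slc7a10 had smaller falls than Limch1 (-0.63) and Npnt (-0.59). Each runs from 250 bases before to 50 after a RefSeq transcription start (GRCm38.p6), read 5′ to 3′ on the gene's strand. The window of Pparg is that of the most downstream of its 3 listed starts. The sources used here do not say which of these starts gave the RNA measured in these lungs. Capitals mark matches, on either strand, to 6 letter patterns: the full palindromic nuclear factor I site, its shorter core TTGGCA, the direct repeat of AGGTCA with 1 base between that PPAR and retinoid X receptors bind, the single nuclear receptor core AGGTCA, the C/EBP pattern TTGCNNAA and the TATA box TATAAA.
Pparg, chr6:115421816-115422115, plus strand: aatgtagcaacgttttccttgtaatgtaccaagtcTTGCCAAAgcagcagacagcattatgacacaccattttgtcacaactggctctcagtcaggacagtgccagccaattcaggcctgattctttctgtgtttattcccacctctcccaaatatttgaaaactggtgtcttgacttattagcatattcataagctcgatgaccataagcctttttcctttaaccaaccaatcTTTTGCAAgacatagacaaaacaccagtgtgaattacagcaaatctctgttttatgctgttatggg
Cd36, chr5:17835847-17836146, minus strand: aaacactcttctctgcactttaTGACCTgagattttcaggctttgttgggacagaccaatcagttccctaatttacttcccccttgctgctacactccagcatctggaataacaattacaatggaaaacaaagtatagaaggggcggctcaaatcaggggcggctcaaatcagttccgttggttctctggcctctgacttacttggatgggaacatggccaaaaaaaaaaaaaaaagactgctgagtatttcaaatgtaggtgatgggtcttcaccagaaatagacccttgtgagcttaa
Inmt, chr6:55174941-55175240, minus strand: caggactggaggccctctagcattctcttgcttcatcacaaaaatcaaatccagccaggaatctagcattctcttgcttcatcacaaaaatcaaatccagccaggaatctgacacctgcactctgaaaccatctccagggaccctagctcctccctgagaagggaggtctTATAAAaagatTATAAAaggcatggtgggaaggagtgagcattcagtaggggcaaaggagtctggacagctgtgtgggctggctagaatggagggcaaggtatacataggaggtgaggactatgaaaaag
Slc7a10, chr7:35186135-35186434, plus strand: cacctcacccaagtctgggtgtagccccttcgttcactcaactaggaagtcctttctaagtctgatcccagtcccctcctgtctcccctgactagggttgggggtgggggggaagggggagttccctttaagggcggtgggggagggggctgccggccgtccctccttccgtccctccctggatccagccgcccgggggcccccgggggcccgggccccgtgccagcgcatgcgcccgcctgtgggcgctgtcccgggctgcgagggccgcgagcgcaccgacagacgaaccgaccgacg

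In the printed Pparg window, a C/EBP match at -215 on the plus strand overlaps a TTGGCA match at -214 on the minus strand, and a further C/EBP match on the minus strand starts at -16. It holds no AGGTCA match. The Pparg windows not printed hold AGGTCA on the plus strand, at -28 in one and at -9 in the other. The latter also holds TATAAA on the minus strand at -29. Positions give the leftmost base of a match as printed, counted from the start site as +1 with no 0. The Cd36 window holds 1 AGGTCA match, on the minus strand at -228. The Inmt window holds 2 TATAAA matches, at -80 and -69, and no CpG dinucleotide. The Slc7a10 window holds none of the 6 patterns, has 24 CpG dinucleotides and is 70.7% G and C, against a median of 7 CpG and 52.7% in all windows. In all, 13 windows of 8 member genes were found; Lpl and Fabp4 were not matched. No member window held the palindromic nuclear factor I site or the direct repeat, which are in 0.0365% and 0.0396% of the 32851 windows of this length. TTGGCA was in 2 member windows (14.1% of all windows), AGGTCA in 7 (16.3%), TTGCNNAA in 1 (10.8%) and TATAAA in 3 (13.6%). Several windows of 1 gene are counted separately, and a match is a description of letters only.

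Cd36, the fatty acid uptake receptor, had the smallest adjusted p of the 10 genes. Its brightest probe set read 10.03, 9.91 and 10.31 in the control-labelled lungs and 9.02, 8.96 and 8.84 in the Cre-labelled lungs. The groups were 0.89 apart, several times the SD within either group (0.20 and 0.09, n = 3 each). The difference was -1.14 ± 0.12 SE, 2.20-fold lower (limma adjusted p = 0.0039), the 28th smallest p of all 27022 probe sets. The other Cd36 probe sets fell as well, by 1.0 (SE 0.14, adjusted p = 0.0089) and by 0.78 (SE 0.15, adjusted p = 0.025) on the log2 scale. The call of the brightest probe set held in all 18 alternative fits run for it, with differences from -1.32 to -1.03. The second probe set passed in 17 of 18, all but that without an intensity trend (adjusted p = 0.056). Of all tested probe sets, 0.748% passed here and in all 6 fits without 1 array, and both of these Cd36 probe sets did. The dimmest one was lost in each fit without 1 array (adjusted p 0.054 to 0.087).

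The other genes of fatty acid uptake and storage did not pass. Lpl, which encodes lipoprotein lipase, read 9.99, 9.97 and 9.27 in the control-labelled lungs and 9.37, 9.45 and 9.24 in the Cre-labelled lungs. Control-labelled replicate 3 lay among the Cre-labelled lungs, so the groups overlapped. The difference was -0.39 ± 0.18 SE (limma adjusted p = 0.28), with a 95% interval from -0.80 to 0.02. Without control-labelled replicate 3 it was -0.62 and passed (adjusted p = 0.035), and without control-labelled replicate 1 or 2 it was -0.26 (0.54) or -0.27 (0.52). The dimmer Lpl probe set had a difference of -0.21 ± 0.14 SE (adjusted p = 0.47).

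Fabp4, the fatty acid binding protein of fat cells, macrophages and capillaries, varied most between Cre-labelled lungs. Its brightest probe set read 8.10, 8.23 and 7.77 in the control-labelled lungs and 5.88, 6.79 and 7.75 in the Cre-labelled lungs. Cre-labelled replicate 3 stood level with the lowest control-labelled lung, and replicates 1 and 2 were far below it (SD 0.24 and 0.93, n = 3 each). The difference was -1.22 ± 0.38 SE (limma adjusted p = 0.11), with a 95% interval from -2.08 to -0.37. Without Cre-labelled replicate 3 it was -1.70 and passed (adjusted p = 0.028), and without Cre-labelled replicate 1 it was -0.76 (adjusted p = 0.19). It also passed with array weights and with the 3′ to 5′ signal of the control transcripts as a covariate (adjusted p = 0.042). A second tested probe set read 7.17, 7.47 and 6.12 against 4.64, 6.29 and 7.18, with overlapping groups (-0.88 ± 0.57 SE, adjusted p = 0.44). In the fits without 1 array its difference ran from -1.45 without Cre-labelled replicate 3 to -0.19 without Cre-labelled replicate 1. The remaining Fabp4 probe sets lay below the filter level, with means of 2.03 and -0.21 for one and 2.40 and 2.93 for the other in control-labelled and Cre-labelled lungs.

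Plin2, which coats lipid droplets, differed little between the groups. It read 10.51, 10.75 and 10.80 in the control-labelled lungs and 10.55, 10.68 and 10.58 in the Cre-labelled lungs, and all Cre-labelled values lay within the control-labelled range. The difference was -0.08 ± 0.11 SE (limma adjusted p = 0.74), and its 95% interval ran from -0.33 to 0.17. Without 1 array it ran from -0.17 without control-labelled replicate 1 to -0.03 without control-labelled replicate 3. The interval of Cd36, -1.41 to -0.87, lies apart from it. The difference between the 2 genes' changes was not tested.

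**Figure D2:**
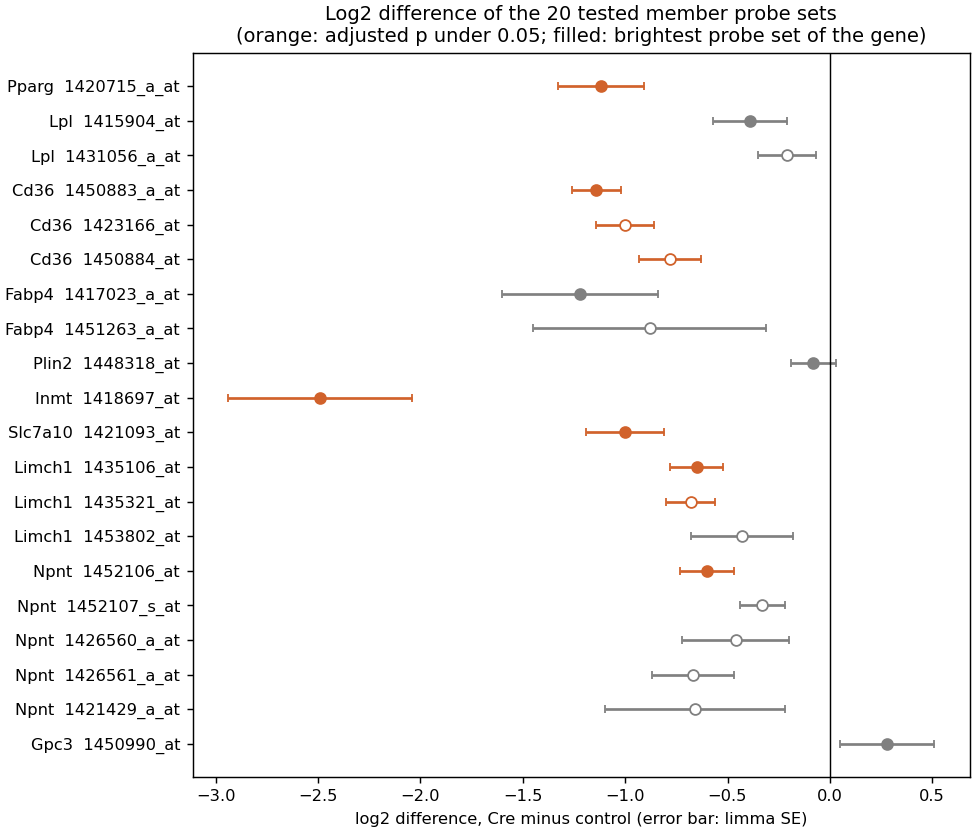
Log2 difference (Cre-labelled minus control-labelled, horizontal axis) of each of the 20 tested probe sets, with the limma SE as bars, orange where the adjusted p is under 0.05 and filled for the brightest probe set of a gene. All but Gpc3 lie left of 0, from -2.49 for Inmt to -0.08 for Plin2.

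Among the alveolar fibroblast genes, Inmt had the largest fall. Inmt encodes an N-methyltransferase of indole amines that is abundant in lung. It read 5.53, 5.81 and 6.91 in the control-labelled lungs and 2.95, 4.41 and 3.43 in the Cre-labelled lungs. The groups were 1.12 apart, although each was spread widely (SD 0.73 and 0.74, n = 3 each). The difference was -2.49 ± 0.45 SE (limma adjusted p = 0.021). With its Cre-labelled mean below the filter level, the size of its fall is poorly fixed. With 64 added to the linear signal it was -0.80 (adjusted p = 0.032). The call was lost without control-labelled replicate 2 (adjusted p = 0.056) or 3 (0.063), without Cre-labelled replicate 1 (0.062) or 3 (0.069), and without an intensity trend (0.070).

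Slc7a10, a transporter of small neutral amino acids, fell about as much as Cd36. It read 6.58, 6.57 and 6.99 in the control-labelled lungs and 5.51, 5.72 and 5.91 in the Cre-labelled lungs. The groups were 0.67 apart. The difference was -1.0 ± 0.19 SE, 2.0-fold lower (limma adjusted p = 0.025), and -0.54 with 64 added to the linear signal (adjusted p = 0.024). Of the 6 fits without 1 array only that without Cre-labelled replicate 3 kept the call (adjusted p = 0.045); in the others the adjusted p was at most 0.077.

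Limch1, which encodes an actin-associated protein with LIM and calponin homology domains, fell in both of its bright probe sets. The brightest read 11.26, 11.45 and 11.34 in the control-labelled lungs and 10.46, 10.87 and 10.77 in the Cre-labelled lungs. The next read 11.09, 11.23 and 11.51 against 10.57, 10.58 and 10.65. In both, no Cre-labelled lung reached the lowest control-labelled lung. The differences were -0.65 ± 0.13 SE (limma adjusted p = 0.030) and -0.68 ± 0.12 SE (adjusted p = 0.023), about 1.6-fold. A dimmer probe set had a difference of -0.43 ± 0.25 SE (adjusted p = 0.38), and the remaining one lay below the filter level with means of 2.41 and 1.48. The brightest kept its call only without Cre-labelled replicate 2 among the 6 fits without 1 array (adjusted p 0.045 to 0.10), and lost it when arrays were shifted to a common median (0.10).

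Npnt encodes nephronectin, a basement membrane protein that binds the integrin containing the Itga8 chain. Its brightest probe set read 11.51, 11.70 and 11.95 in the control-labelled lungs and 11.10, 11.05 and 11.19 in the Cre-labelled lungs. The groups were 0.32 apart, and the Cre-labelled lungs were close together (SD 0.22 and 0.07, n = 3 each). The difference was -0.60 ± 0.13 SE, 1.52-fold lower (limma adjusted p = 0.041). The other 4 tested Npnt probe sets did not pass, with differences from -0.67 to -0.33 and adjusted p from 0.095 to 0.46. The call was kept only without control-labelled replicate 1 among the 6 fits without 1 array (adjusted p 0.044 to 0.13), and was lost with a common median (0.096) and with no filter.

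Gpc3, an X-linked glypican that carries heparan sulfate on the cell surface and restrains hedgehog signalling, was the only member with a higher mean in the Cre-labelled lungs. It read 9.60, 9.54 and 10.18 in the control-labelled lungs and 9.88, 9.74 and 10.55 in the Cre-labelled lungs. Replicate 3 was the highest of each group, and the groups overlapped. The difference was 0.28 ± 0.23 SE (limma adjusted p = 0.55), with a 95% interval from -0.23 to 0.80. In the fits without 1 array it ran from 0.04 without Cre-labelled replicate 3 to 0.49 without control-labelled replicate 3, and none passed.

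For single genes, the exact permutation test over 3 against 3 arrays, two-sided, cannot give a p below 0.10. It gave this smallest p of 0.10 for each of the 6 genes that fell and for Fabp4, and 0.30 for Lpl. Without an intensity trend in the limma fit only Pparg and Cd36 kept the call of their brightest probe set.

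Genes that work with the members were taken from 8 lists, with 105 genes tested outside the 10 members. Of these 14 fell, 4 rose and 70 had a lower mean, with a median log2 difference of -0.18. Over all genes tested 3.04% fell, 1.92% rose and 51.5% had a lower mean, and the counts of each list below stand beside these shares. The lists were also chosen with earlier results of these arrays known. Among 28 genes of lipid uptake and storage 3 fell and none rose, with a median of -0.24. These 3 were genes of triglyceride turnover: Abhd5, the coactivator of the main triglyceride lipase (-0.59 ± 0.11 SE, limma adjusted p = 0.025), that lipase gene Pnpla2 (-0.62 ± 0.13 SE, adjusted p = 0.037) and the phosphatidate phosphatase gene Lpin1 (-0.65 ± 0.14 SE, adjusted p = 0.041). Each of them lost the call in all 6 fits without 1 array. Further genes of triglyceride synthesis, Dgat1 (0.05) and Dgat2 (0.09), did not pass, nor did the lipase genes Lipe (-0.28) and Mgll (-0.40). The perilipin gene Plin3 (-0.03) and the lipoprotein lipase anchor gene Gpihbp1 (-0.73, adjusted p = 0.13) did not pass either.

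Of 16 partners and regulators of PPAR gamma 3 fell and none rose, with a median of -0.01. Klf15, a Kruppel-like factor of adipocyte differentiation, had a difference of -1.11 ± 0.17 SE (limma adjusted p = 0.011) and passed in all 6 fits without 1 array. Cebpd (-0.85 ± 0.16 SE, adjusted p = 0.025) and Cebpa (-0.64 ± 0.14 SE, adjusted p = 0.042) encode C/EBP factors that act in fat cell and lung differentiation and passed in 2 and 1 of these fits. A dimmer Cebpd probe set had the opposite sign without passing (adjusted p = 0.50). The receptor partners Rxra (0.05) and Rxrb (0.14) and the parathyroid hormone receptor gene Pth1r (0.50, adjusted p = 0.086), whose ligand acts on lipofibroblasts, did not pass. Of 8 genes listed as PPAR gamma targets 3 fell, Scd1, a fatty acid desaturase (-1.68 ± 0.14 SE, adjusted p = 0.0021), Pdk4, a kinase that restrains glucose oxidation (-1.53 ± 0.21 SE, adjusted p = 0.0086), and the cytochrome P450 gene Cyp4b1 (-0.93 ± 0.19 SE, adjusted p = 0.032). The target gene Angptl4 did not pass (0.19). Scd1 and Pdk4 passed in all 6 fits without 1 array and Cyp4b1 in 1. All 3 are also expressed outside fibroblasts.

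A further 16 alveolar fibroblast genes had a median of -0.25; 2 of them fell and 1 rose. Scube2, a secreted protein of hedgehog release, had a difference of -1.31 ± 0.19 SE (limma adjusted p = 0.0099) and the Wnt ligand gene Wnt2 one of 0.65 (adjusted p = 0.0085). Both passed in all 6 fits without 1 array. Vegfd, a lymphatic growth factor gene, fell by 0.45 (adjusted p = 0.043), a call lost in all 6. Tcf21, a transcription factor of lipofibroblasts, read 12.01, 12.31 and 12.29 in the control-labelled lungs and 11.86, 12.03 and 11.77 in the Cre-labelled lungs. Its groups overlapped (-0.32 ± 0.14 SE, adjusted p = 0.24). Pdgfra (-0.33), Col13a1 (-0.35), Fgf10 (0.35), Mfap4 (-0.28) and Ces1d (-0.08) did not pass either.

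Calls in both directions were found in the lists around Npnt and Gpc3. Among 10 receptors and partners of nephronectin, the integrin gene Itgb3 fell (-1.35 ± 0.27 SE, limma adjusted p = 0.030) and Itgb5 rose (0.46 ± 0.11 SE, adjusted p = 0.049), while Itga8 had a difference of -0.06. Among 11 glypican and hedgehog genes 2 rose and 1 fell, with a median of 0.44. The glypican gene Gpc6 read 7.51, 7.30 and 7.02 in the control-labelled lungs and 8.41, 8.14 and 8.51 in the Cre-labelled lungs (1.07 ± 0.15 SE, adjusted p = 0.0095). The hedgehog effector gene Gli3 rose by 0.89 (SE 0.13, adjusted p = 0.0095), and Hhip, a hedgehog inhibitor, fell by 0.44 (SE 0.10, adjusted p = 0.045). Gpc6 and Gli3 passed in all 6 fits without 1 array, Itgb3 in 2, and Itgb5 and Hhip in none. None of 11 relatives and partners of Slc7a10 passed, with Slc1a4 (-0.96, adjusted p = 0.066) and Slc7a7 (-0.53, adjusted p = 0.11) nearest. Of 8 small molecule methyltransferase genes, Gnmt, which methylates glycine, fell (-1.82 ± 0.15 SE, adjusted p = 0.0021), and Hnmt (-0.52) and Nnmt (-0.51), which act on histamine and nicotinamide, did not pass.

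**Figure D3:**
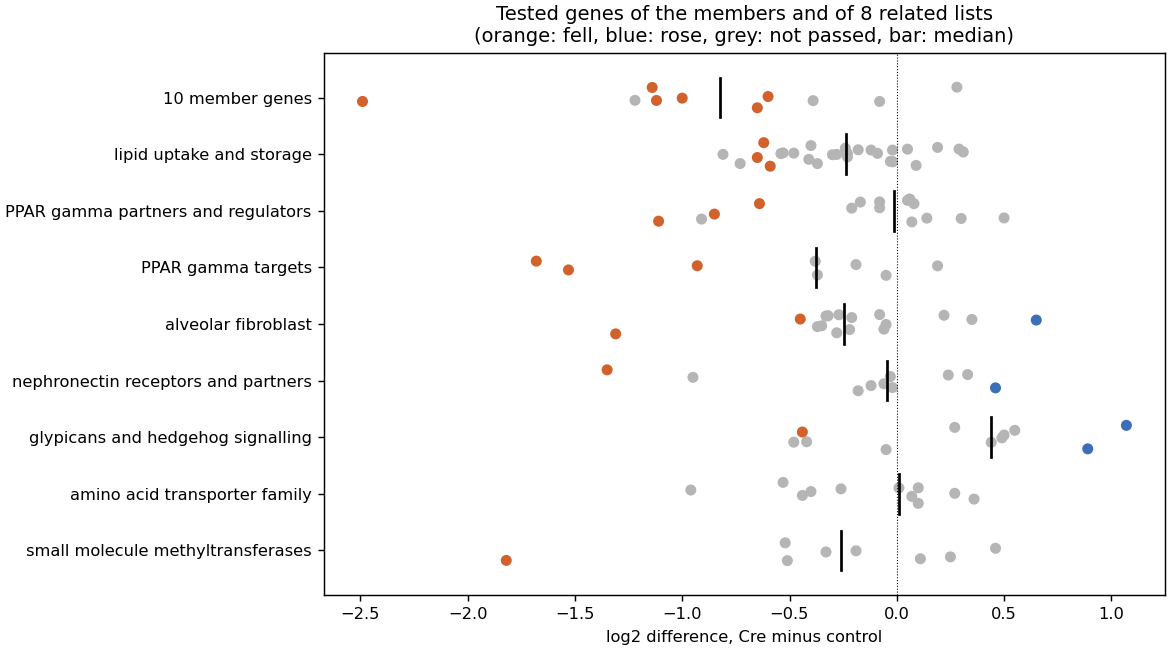
Log2 differences (Cre-labelled minus control-labelled) of the brightest tested probe set of each gene for the 10 members and 8 related lists, with a bar at each median and colours for genes that fell (orange), rose (blue) or did not pass (grey). The members' median lies at -0.82 and the lists' medians run from -0.38 for PPAR gamma targets to 0.44 for glypicans and hedgehog signalling.

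Summed signals of several marker lists for other cell types differed between the groups, and their part in the results was not tested. The summed linear signal of 18 endothelial markers ran from 17452 to 20906 in the control-labelled lungs and from 14968 to 16659 in the Cre-labelled lungs. Of these markers 1 fell, the capillary carbonic anhydrase gene Car4 (-2.14 ± 0.22 SE, limma adjusted p = 0.0039). For 13 macrophage markers, 10 of them tested, the sums were 5387 to 6270 and 3462 to 4218, and Lyz2 (-0.88) and Chil3 (-1.67) fell. Chil3 was tested only because of its control-labelled signal, since its Cre-labelled mean of 3.72 lay below the filter level. Bright genes weigh most in such a sum, and Lyz2 had means of 11.79 and 10.91 (log2). The other 8 tested did not pass, among them Csf1r (-0.21), Mrc1 (-0.15) and Adgre1 (0.12), and 7 of the 10 had a lower mean. Sums of 10 alveolar type I markers were 20017 to 30177 and 15140 to 16741, with 6 genes that fell (Aqp5, Pdpn, Rtkn2, Clic5, Emp2 and Scnn1g). Sums of 10 alveolar type II markers were 25440 to 42565 and 21599 to 23573. Of these markers 4 fell, the surfactant genes Sftpb, Sftpa1 and Sftpd and the lipid transporter gene Abca3. The other 6 did not pass, among them Sftpc (-0.07) and Etv5 (0.41), and 9 of the 10 had a lower mean. The sums of these 4 lists did not overlap between the groups. Nor did those of 8 pericyte markers, 2923 to 3193 against 2521 to 2711, with 1 gene that fell (Higd1b), or of 4 red cell markers, 944 to 1080 against 452 to 831, with none of the 2 tested passing. Sums of 7 smooth muscle markers lay the other way, 5398 to 5988 in the control-labelled and 6213 to 6458 in the Cre-labelled lungs, and none of the 7 passed. Of all single genes tested, 16.5% did not overlap between the groups as lower and 15.3% as higher. No such share was computed for sums of lists. General mesenchyme markers overlapped, at 26292 to 34153 and 25981 to 30401, and none of 11 passed. Of 8 adipocyte markers 7 lay below the filter level, among them Adipoq, Lep and Cidec, and the eighth, Lipe, had a difference of -0.28 (adjusted p = 0.66). Epithelial sums overlapped, at 7952 to 9704 and 6731 to 8212, and 1 of 6 genes fell (Krt19). Skeletal muscle sums, 292 to 3656 and 237 to 312, and liver sums, 60 to 870 and 79 to 416, overlapped too, with none of their tested markers passing. Xist and Y-linked signal read 1 lung of each group as female.

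Markers of heart muscle, a tissue that uses Lpl, Cd36 and fatty acid binding proteins, differed widely between the arrays. The mean log2 signal of 15 cardiac markers was 8.65, 7.69 and 6.92 in the control-labelled lungs and 5.42, 6.28 and 7.15 in the Cre-labelled lungs. All 15 had a lower mean in the Cre-labelled lungs and 1 fell, the myosin gene Myh7 (-1.03, limma adjusted p = 0.031). In the Cre-labelled lungs Fabp4 had the same order as this mean, 5.88, 6.79 and 7.75. In the control-labelled lungs Fabp4 did not, at 8.10, 8.23 and 7.77. Lpl had the order of the cardiac mean in the control-labelled lungs, at 9.99, 9.97 and 9.27. It did not in the Cre-labelled lungs, at 9.37, 9.45 and 9.24. The cardiac mean itself differed between the groups, so a fit with it as a covariate cannot separate it from genotype. In that fit the difference of Fabp4 was -0.31 (limma adjusted p = 0.74), and that of Lpl was -0.15 (0.82). Cd36 read 9.02, 8.96 and 8.84 in the Cre-labelled lungs, and with the covariate the difference of its brightest probe set was -1.32 (adjusted p = 0.040). Differences of the other genes that fell stayed between -2.86 and -0.56 with it, but none passed: the adjusted p was 0.14 for Pparg, 0.090 for Inmt, 0.13 for Slc7a10, 0.20 for Limch1 and 0.11 for Npnt.

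**Figure D4:**
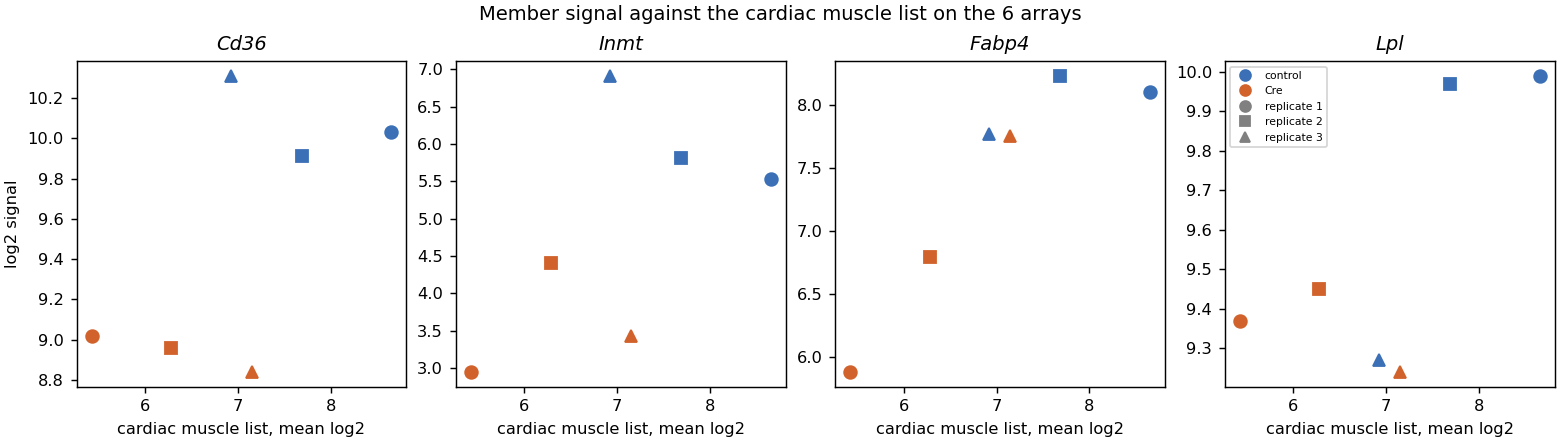
Log2 signal of Cd36, Inmt, Fabp4 and Lpl (vertical axes, each with its own range) against the mean log2 signal of 15 cardiac muscle markers on the 6 arrays, control-labelled in blue and Cre-labelled in orange. Cardiac means run from 6.92 to 8.65 in the control-labelled and from 5.42 to 7.15 in the Cre-labelled lungs, and the Cre-labelled lungs read 8.84 to 9.02 for Cd36 and 5.88 to 7.75 for Fabp4.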

How the data were processed

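RNA of 6 whole lungs was hybridised as biotin-labelled cRNA to Affymetrix arrays, as the labels' protocols state. MAS5 and affy are named in the submitters' processing notes, with no version. The authors deposited log2 signals. Raised to the power of 2, they have a common mean with 2% trimmed at each end, and 4.93% to 6.49% of them lie below 0; the sources used here give no further scaling. They were used without an offset.

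After removal of 64 control probe sets, 34945 of 45037 had 1 gene symbol, 932 several and 9160 none. Names were updated through RefSeq (GRCm38.p6; 34741 matched). Probe sets with a mean over all arrays at or above the 40th percentile (27022) entered a fit with limma 3.58.1 (R 4.3.3), with an intensity trend and no covariates (4 residual and 5.32 prior degrees of freedom). The brightest probe set stood for a gene. Gene lists (22, with 252 of 272 entries matched) were described by counts only. Named are all members, the list genes that passed, for a list the 2 genes with the smallest p, and for each member that fell the 3 genes of nearest profile; other list genes were chosen as examples after their values were seen, and lists with no values of their own to add are given by counts. The members and lists were chosen with earlier results of these arrays known. Of the other probe sets of the 18 called list genes, 4 of 17 were called the same way, 0 the other way and 1 had the opposite sign.

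Alternatives were quantile and median scaling, offsets of 1 and 64, a stricter filter (60th percentile) and none, no trend, array weights, a replicate block, each array left out, 3 covariates, an adjusted p of 0.10 and 1 probe set per gene. Fetal sex was read from Xist and Y-linked signal. On simulated arrays of 27022 probe sets, limma recovered 37 of 50 changed 4-fold, 34 of 50 at 3-fold, 20 of 50 at 2-fold and 8 of 50 at 1.5-fold. The simulated noise was normal and independent between probe sets, and fewer probe sets were changed than were called in the real arrays. These shares therefore do not give the power of the real comparison. The number of arrays limits precision. Figures used matplotlib 3.10.9 in Python 3.11.15.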

Additional observations from a re-analysis of the deposited data

How the results depend on the processing

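Of 359 values of single member probe sets under the alternatives, 301 kept direction and side of the threshold, 53 lost the call, 4 gained it and 1 turned sign, the second Fabp4 probe set with the cardiac covariate (0.61). Counts of all called probe sets (963, with 583 lower and 380 higher) were 2120, 1188 and 932 at an adjusted p of 0.10, 123, 82 and 41 with the cardiac covariate, and 171, 124 and 47 without an intensity trend. With fetal sex as a covariate the total was 587 with 196 higher, with a common median 384 were lower and 263 higher, and without a filter 249 were higher. Member genes called (6) were 1 with the cardiac covariate and 2 without the trend, and member probe sets (9) were 2 in both. Other list genes called (18) were 28 at an adjusted p of 0.10, 3 with the cardiac covariate, 11 with fetal sex and 4 without the trend. The cause of these shifts was not tested. In the fits without 1 array, which have fewer samples, the ranges were 314 to 495 for all probe sets, 208 to 351 lower, 93 to 163 higher, 2 to 5 member probe sets, 1 to 3 member genes and 8 to 10 other list genes.

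Whether replicate numbers pair the samples was not settled. Deviations of same-numbered arrays correlated at -0.014, 0.195 and 0.138, and were not compared with those of differently numbered arrays. With the replicate block 9 member probe sets, 6 member genes and 20 other list genes were called. In all 1309 probe sets were called with it, against 963 without it. Dim signals limit Pparg, Slc7a10, Inmt and the dimmest Cd36 probe set, whose differences moved by over 1.5 times with the offset of 64.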

Other observations

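For each member that fell, the genes with the most similar profile over the 6 arrays were listed by the root mean square difference between gene-centred log2 values. Nearest to Cd36 were Tmem37 (0.082 log2 units), the sodium channel subunit gene Scnn1b (0.096) and the elastin gene Eln (0.101). All 3 fell, by 1.15, 1.09 and 1.19 on the log2 scale (limma adjusted p = 0.0039, 0.0090 and 0.0039). Nearest to Pparg were Phactr1 (0.080), Susd2 (0.102) and Prkag3 (0.107), and to Slc7a10 the metallothionein gene Mt1 (0.079), Sh3d21 (0.087) and Dnali1 (0.102). Inmt had no close profile, with the chitinase-like gene Chil1 at 0.424, S100g at 0.438 and Phgr1 at 0.460. Limch1 lay nearest to Tspo (0.062), Slc45a3 (0.063) and Dmkn (0.066), and Npnt to Cfap54 (0.039), Gstk1 (0.041) and Gal3st1 (0.054). Among the 45 pairs of members, Pparg and Cd36 were closest (0.170), followed by Limch1 with Npnt (0.182) and Cd36 with Slc7a10 (0.185). With 6 arrays in groups that differ, any genes with a fall of like size come near each other on this measure.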
